A study of Mus musculus with 26 samples.

Results

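The bone morphogenetic protein (BMP) pathway and the Id genes were described in 3 mouse pluripotent cell states, by their RNA levels and by the DNA fragments that their promoters contacted. The set was a list of 10 genes named from the pathway: the ligand gene Bmp4, the receptor gene Bmpr1a, the signal transducers Smad1 and Smad5, the inhibitors Smad6 and Bambi, and the targets Id1, Id2, Id3 and Id4. No rule on measured values chose them, but earlier results of these data were known when the list was made. Of these 10, 8 had a row in the RNA table of 15646 genes, and the same 8 had a baited promoter fragment among the 19022 fragments baited in any contact list. No row or bait named Id3 or Bmpr1a was found in the tables used here, and these genes were not analysed here.

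The samples came from wild-type (WT) ESCs, EpiSCs and Nanog-/- ESCs. The WT ESCs were the line E14Tg2a and the Nanog-/- ESCs were RCNβH-B(t), a line derived from E14Tg2a that lacks Nanog and was expanded under hygromycin; both grew on gelatin in serum with LIF. The EpiSCs were derived from 129S2 embryos and grew on fibronectin in serum-free N2B27 with Activin A and bFGF, without LIF. Cell state, line and medium therefore cannot be told apart between EpiSCs and ESCs, and each state was 1 line. The labels give the strain of all samples as C57BL/6, whereas the culture notes name 129P2/OlaHsd for E14Tg2a and 129S2 for the EpiSCs. RNA-seq covered 3 WT ESC, 4 EpiSC and 3 Nanog-/- ESC samples, but the table used here holds 1 median per group. Promoter-capture Hi-C (PCHi-C), which enriches Hi-C ligation products for baited promoter fragments, covered 5, 2 and 5 sequencing lanes, combined into 1 list per state. The authors' own fold changes and p-values were not used here, and medians and combined lists alone give no spread between replicates and allow no test. Differences below are descriptions of these medians and lists.

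BMP ligands bind receptor kinases at the cell surface, which phosphorylate SMAD1 and SMAD5, and these enter the nucleus with SMAD4 and bind regulatory DNA. The Id genes are among the best known direct targets in ESCs. ID proteins lack a DNA-binding domain and hold E proteins away from DNA, and in ESC culture BMP or serum acts through them, together with LIF, to restrain differentiation. SMAD6 and BAMBI, a receptor without kinase activity, dampen the signal and are themselves induced by it.

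The labelled states were checked first. Nanog was at 418 RPKM (reads scaled by gene length and library size) in WT ESCs, 191 in EpiSCs (361 as deposited) and 22.3 in Nanog-/- ESCs, so the library group labelled as knockout held 0.0533 of the WT level. All 6 naive markers with a row were at least 2-fold lower in EpiSCs, and Fgf5, Sox3 and T of the 6 primed markers were at least 2-fold higher. The other primed markers changed less: Pou3f1 was at 23.0 RPKM in WT ESCs and 42.8 in EpiSCs, Otx2 at 39.5 and 41.4, and Dnmt3b was lower in EpiSCs, at 210 and 144. Of the genes shared by both pluripotent states, Pou5f1 was at 1159 RPKM in WT ESCs and 754 in EpiSCs, and Sox2 at 397 and 72.6. All 4 primitive endoderm markers (Gata4, Gata6, Sox7 and Sox17) were at least 2-fold higher in Nanog-/- ESCs, with a summed level of 50.0 RPKM against 2.19 in WT ESCs. In EpiSCs Gata6 and Sox17 were also at least 2-fold higher than in WT ESCs, and the summed level of the list was 11.7 RPKM after scaling. The 3 collagen genes with a row among 4 fibroblast markers were at least 2-fold higher in EpiSCs, with a summed level of 176 RPKM after scaling against 23.4 in WT ESCs and 26.3 in Nanog-/- ESCs. The part of such cells in the values below was not tested, and in bulk RNA fewer cells of a type and less RNA per cell cannot be told apart. The EpiSC values were also high as a whole: the median EpiSC/WT ratio over 9077 genes at 1 RPKM or more in both states was 1.89, a shift of 0.91 on the log2 scale. EpiSC values were divided by this ratio unless they are said to be as deposited.

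Among the members, Smad5 RNA was higher and Bmp4 and Id2 RNA were lower in EpiSCs than in WT ESCs. No member passed the limit for a call between Nanog-/- and WT ESCs. Differences were taken between values of log2(RPKM + 1), which understates the change of low genes. A difference of at least 1 was called, over 11066 genes at 1 RPKM or more in some state, with EpiSC values as deposited for this filter. This is 2-fold in RPKM + 1, and for RNA 2-fold is used in this sense below. By the ratio of RPKM itself, Smad6 in Nanog-/- ESCs (0.486) and Smad1 in EpiSCs (2.02) were past 2-fold without being called. All 8 members with a row passed this filter, none of them only through EpiSCs. A gene under 1 RPKM in both ESC states passed it only through EpiSCs and could not be called lower there. The shares of all genes include such genes. In EpiSCs 1 of 8 members was called higher, where 14.8% of all genes were, and 2 of 8 were called lower, where 13.7% of all genes were. The median difference of the members was 0.24, beside 0.03 for all genes. Without the scaling the split changed to 4 of 8 members higher and none lower, with a median of 1.04, while the split over all genes moved from 1633 higher and 1512 lower to 4702 higher and 904 lower. In Nanog-/- ESCs 0 of 8 members were called, where 2.39% of all genes were higher and 1.92% were lower. Both comparisons rest on the same WT ESC medians. The plot of RNA levels shows both sets of EpiSC values.

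**Figure D1:**
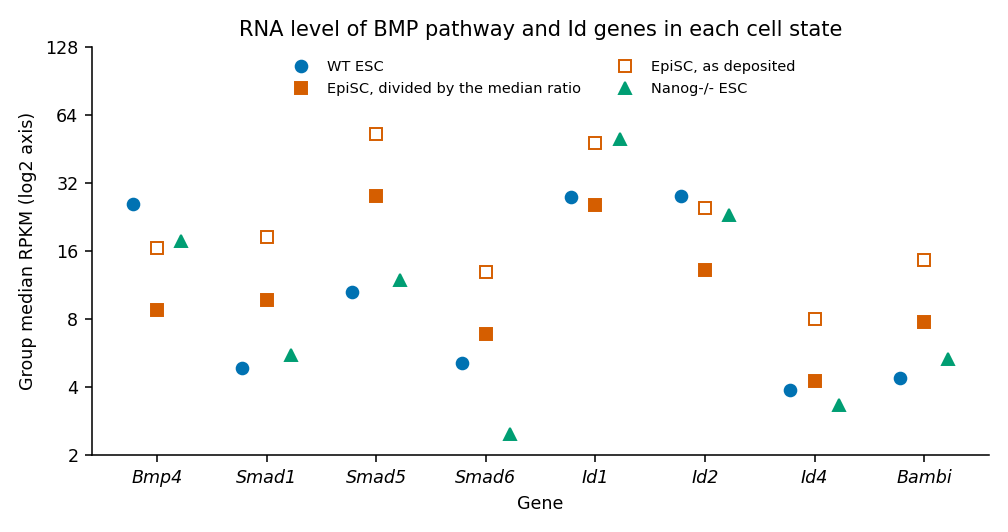
Group median RPKM of the 8 members (log2 axis) in WT ESCs (circles), EpiSCs (filled squares, divided by the median ratio; open squares, as deposited) and Nanog-/- ESCs (triangles); no error bars can be drawn from medians. Smad5 is highest in EpiSCs on either scale, Bmp4 is highest in WT ESCs, and Id1 reaches 50.4 RPKM in Nanog-/- ESCs.

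The ligand gene Bmp4 was at 25.9 RPKM in WT ESCs, 8.78 in EpiSCs (16.6 as deposited) and 17.7 in Nanog-/- ESCs. It was lowest in EpiSCs on either scale, with a log2 difference of -1.46 after scaling and -0.62 as deposited. The transducer Smad5 went the other way, from 10.6 RPKM in WT ESCs to 28.0 in EpiSCs (52.7 as deposited), with a log2 difference of 1.32 that was 2.21 as deposited. Smad1, which shares its role, was at 4.85 RPKM in WT ESCs and 9.79 in EpiSCs (18.5 as deposited), a log2 difference of 0.88, just under the call. In Nanog-/- ESCs both transducers stayed close to WT, at 12.0 RPKM for Smad5 and 5.57 for Smad1. Smad5 thus exceeded Smad1 by RPKM in each of the 3 states.

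The inhibitor genes Smad6 and Bambi were near the middle of all genes in each state, at percentiles from 44.6 to 56.4. Smad6 was at 5.11 RPKM in WT ESCs, 6.88 in EpiSCs (13.0 as deposited) and 2.48 in Nanog-/- ESCs, where its log2 difference was -0.81 and the ratio to WT was 0.486. With a pseudocount of 0.1 in place of 1 RPKM, Smad6 passed 2-fold there (-1.01). Bambi was at 4.40 RPKM in WT ESCs, 7.77 in EpiSCs (14.6 as deposited) and 5.35 in Nanog-/- ESCs, with log2 differences of 0.70 and 0.23.

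The Id genes did not share 1 pattern. Id1 was at 27.8 RPKM in WT ESCs, 25.7 in EpiSCs (48.4 as deposited) and 50.4 in Nanog-/- ESCs. Its log2 difference of 0.84 in Nanog-/- ESCs was the largest of the members there, and in EpiSCs it was -0.11 after scaling and 0.78 as deposited, so the direction depends on the scaling. Id2 was at 28.0 RPKM in WT ESCs, 13.2 in EpiSCs (24.8 as deposited) and 23.2 in Nanog-/- ESCs. The log2 difference of Id2 in EpiSCs, -1.03, was only just past the call, and it was -0.89 when the ratio was taken over genes at 10 RPKM or more and -0.16 as deposited. Id4 was below Id1 and Id2 throughout, at 3.88 RPKM in WT ESCs, 4.27 in EpiSCs (8.05 as deposited) and 3.34 in Nanog-/- ESCs. Id1 and Id2 were thus level in WT ESCs (27.8 and 28.0 RPKM), whereas Id1 exceeded Id2 in the other states; with no spread given, neighbours this close cannot be ordered.

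Ranked by RPKM, the members ran from Id2, Id1 and Bmp4 at the top to Id4 at 3.88 in WT ESCs, from Smad5 and Id1 to Id4 at 4.27 in EpiSCs, and from Id1 and Id2 to Smad6 at 2.48 in Nanog-/- ESCs. Over the 3 states, the gene whose centred log2 profile lay nearest to that of Id1 was Ap3d1, at a Euclidean distance of 0.0173, and 21 genes lay within 0.1. For Id2 it was Hist1h4j at 0.0078, with 86 genes within 0.1, and for Id4 Pla2g2e at 0.0008, with 249 genes within 0.1. With 3 values per gene, such nearness is common.

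Of the other pathway lists, ligands and modulators held the most genes past 2-fold in EpiSCs. These lists too were chosen with earlier results of these data known. Of all genes past the filter, 14.8% were called higher in EpiSCs and 13.7% lower. Of 8 other ligand genes past the filter, 4 were called higher in EpiSCs and none lower. Bmp2 was at 0.216 RPKM in WT ESCs and 21.7 in EpiSCs, and Bmp7 was at 3.54 RPKM in WT ESCs and 44.9 in EpiSCs. Bmp5 was at 0.0264 and 8.32 RPKM, and Gdf6 at 0.106 and 2.36 RPKM. Bmp2, Bmp5 and Gdf6 were under 1 RPKM in both ESC states. They passed the filter only through EpiSCs and could not have been called lower there. While Bmp4 RNA was lower in EpiSCs, the RNA of the 4 called ligands was higher. Of those not called, Bmp8b went from 6.40 to 2.85 RPKM and Bmp8a from 0.942 to 0.498, with log2 differences of -0.94 and -0.37. Bmp6 (0.18) and Gdf7 (0.32) were slightly higher. Gdf7 passed the filter only by its deposited EpiSC value of 1.09 RPKM. Of 13 modulators and antagonists 7 were called higher and none lower, with a median log2 difference of 1.66, beside 0.03 for all genes. These included Nog (noggin), at 0.638 RPKM in WT ESCs and 36.0 in EpiSCs, and Chrd (chordin), at 1.20 and 40.4 RPKM, both of which bind BMPs outside the cell. Nog too passed the filter only through EpiSCs. Cer1, a secreted antagonist of Nodal and BMPs, was at 1.42 RPKM in WT ESCs and 124 in EpiSCs and was listed at 0 in Nanog-/- ESCs. Fst (follistatin), which binds activins and some BMPs, was at 2.60 RPKM in WT ESCs and 40.9 in EpiSCs. Rgma and Rgmb, BMP co-receptors of the same list, were also called higher in EpiSCs, with log2 differences of 2.55 and 1.66. The antagonist Grem1 was higher in both other states, at 24.3 RPKM in EpiSCs and 32.2 in Nanog-/- ESCs against 5.57 in WT ESCs.

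Fewer receptors and downstream genes were called. In lists this short, 1 call cannot be set apart from the 14.8% of all genes called higher in EpiSCs. Of 5 receptor genes only Acvr1, a type I BMP receptor, was called, at 3.57 RPKM in WT ESCs and 9.30 in EpiSCs. Neither of the 2 other Smads past the filter was called: Smad4 was at 44.4, 71.3 and 48.4 RPKM and the inhibitor Smad7 at 27.1, 17.9 and 20.0 RPKM in WT ESCs, EpiSCs and Nanog-/- ESCs. Of 5 BMP-responsive genes Atoh8 was called higher in EpiSCs, at 1.60 against 0.0114 RPKM, and Hey1 was called lower in Nanog-/- ESCs, at 2.38 against 6.89 RPKM. Atoh8 passed the filter only through EpiSCs. The median log2 difference of the 5 genes in EpiSCs was -0.05. Uncalled there, Gata2 (-0.93), Msx2 (-0.50) and Cdx2 (-0.05) were lower and Hey1 (0.51) was higher. Of the 3 E protein genes, whose products the ID proteins bind, Tcf12 was called higher in EpiSCs, at 56.5 against 11.9 RPKM. In Nanog-/- ESCs the other calls in these lists were Bmp6 at 3.18 against 0.849 RPKM, Grem1, Bmper at 2.31 against 0.225 RPKM, and Cer1. The plot of RNA differences sets these lists beside the members. As deposited, 4 of 5 receptors and 11 of 13 modulators were past 2-fold in EpiSCs, since the shift of all genes is then included.

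**Figure D2:**
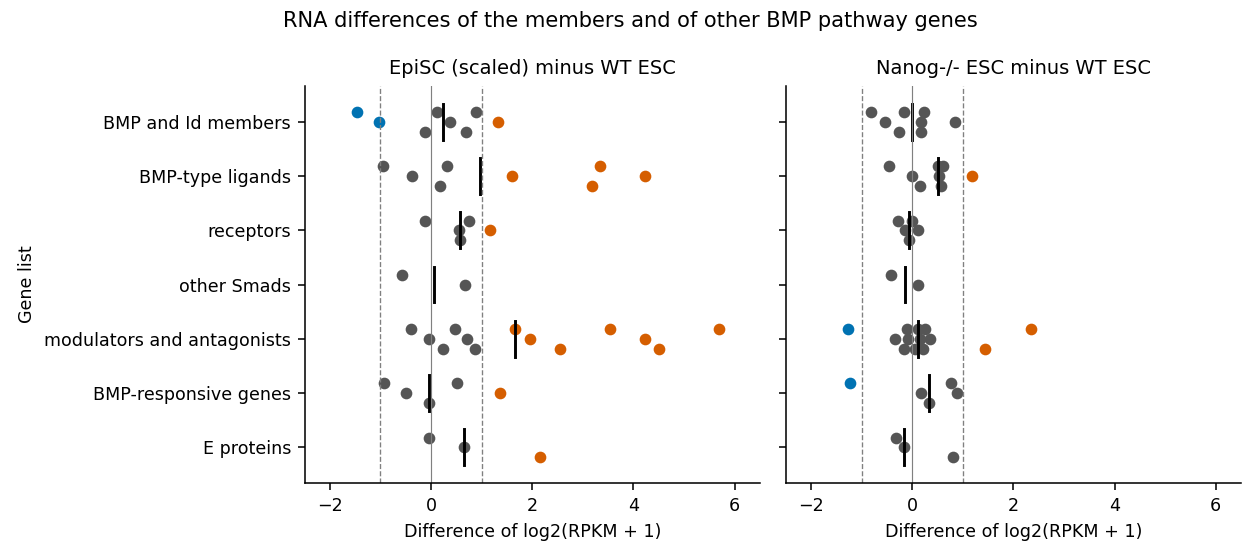
Differences of log2(RPKM + 1) for EpiSCs (left, scaled) and Nanog-/- ESCs (right) against WT ESCs; each point is a gene, black bars are list medians, dashed lines mark 2-fold, and called genes are orange (higher) or blue (lower). In EpiSCs 7 of 13 modulators and antagonists lie past the upper line, against 1 of 8 members.

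In the PCHi-C lists the member promoters had 28 contacts for WT ESCs, 48 for EpiSCs and 15 for Nanog-/- ESCs. A contact is a pair of HindIII fragments whose read pairs exceed the background at that distance with a CHiCAGO score of at least 5. The lists as a whole ran from 100492 pairs in WT ESCs to 87369 in EpiSCs and 74931 in Nanog-/- ESCs, and their summed read pairs from 2177383 to 1651422 and 1440356, so a contact missing from the Nanog-/- list may not have been detectable at its depth. The member total was higher in EpiSCs although that list was shorter than the WT list. Neighbouring partner fragments are not independent, and when those within 5 kb were joined the totals were 22, 26 and 15 regions, so most of the excess in EpiSCs was of adjacent fragments. By bait, the counts in WT ESCs, EpiSCs and Nanog-/- ESCs were 0, 1 and 0 for Bmp4, 2, 2 and 1 for Smad1, 0, 2 and 0 for Smad5, 1, 9 and 2 for Smad6, 4, 12 and 4 for Id1, 5, 8 and 1 for Id2, 6, 1 and 3 for Id4, and 10, 13 and 4 for Bambi. Over all baits the medians were 3, 3 and 2 contacts. No member promoter was listed in contact with another member or with the bait of another gene of the pathway lists.

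**Figure D3:**
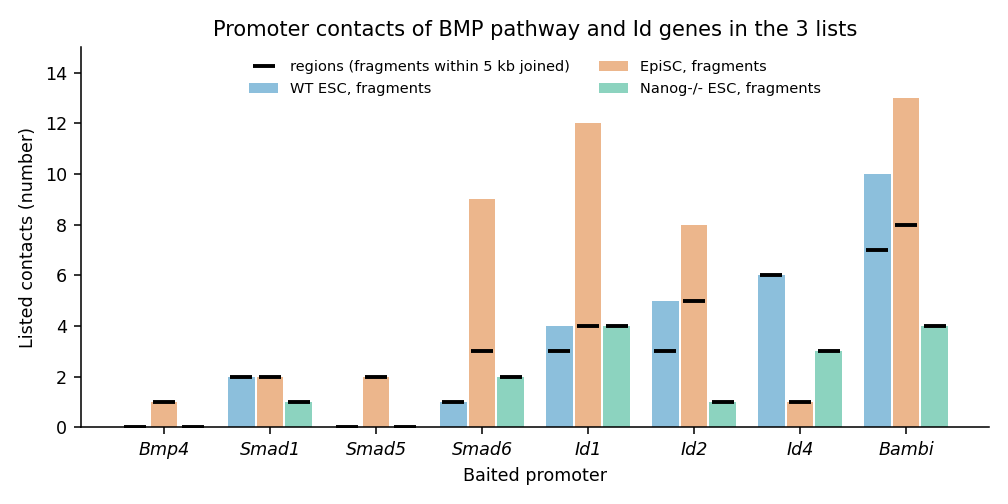
Number of listed contacts (bars, from 0) of each baited promoter in the 3 lists, with black dashes for the number of regions after joining partner fragments within 5 kb. Smad6 has 9 fragments but 3 regions in EpiSCs, and Id1 has 12 fragments but 4 regions.

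Of the 5 member baits with at least 5 contacts in WT ESCs or EpiSCs, Smad6 and Id1 had at least 2-fold more contacts in EpiSCs, as did 14.6% of all such baits. Id4 had at least 2-fold fewer, as did 28.8%, and Id2 and Bambi changed by less than 2-fold. Between Nanog-/- and WT ESCs 3 member baits could be counted in this way, and Id2, Id4 and Bambi all had at least 2-fold fewer contacts. Over all baits this was so for 30.3%, and 6.25% had at least 2-fold more. Of the 28 WT contacts, 11 (39.3%, Wilson 95% interval 23.6 to 57.6) were also in the EpiSC list, beside 39.6% of all WT pairs. Of the 48 EpiSC contacts the same 11 made up 22.9% (13.3 to 36.5), beside 45.5% of all EpiSC pairs. In the Nanog-/- list 4 of the 28 WT contacts recurred, 14.3% (5.70 to 31.5) beside 41.8% of all WT pairs, and these were 26.7% (10.9 to 52.0) of the 15 Nanog-/- contacts, beside 56.0% of all Nanog-/- pairs. The intervals cover counting error only and treat the contacts as independent, which adjacent fragments are not. Where the partner was allowed to lie within 5 kb, 14 and 6 of the 28 WT contacts had a match in the EpiSC and Nanog-/- lists. The share of all pairs under this looser rule was not computed, so these counts cannot be set beside the shares above.

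The distances of member contacts differed by promoter. Over all members the median distance, between fragment midpoints, was 322 kb for WT ESCs, 178 kb for EpiSCs and 233 kb for Nanog-/- ESCs, beside 139, 141 and 74.1 kb for all pairs within a chromosome. Contacts over 800 kb numbered 4, 6 and 2, in the same order of states, and all belonged to Id2 and Bambi. Smad6 and Id1 contacts were short, with medians of 61.2 and 78.4 kb in WT ESCs and 64.0 and 76.6 kb in EpiSCs. Those over 800 kb made up 14.3%, 12.5% and 14.3% of the member contacts within a chromosome, beside 1.30%, 1.78% and 0.370% of all such pairs. The partner was itself a baited promoter fragment for 7, 8 and 2 member contacts, which is 25.0%, 16.7% and 13.3%, beside 23.1%, 18.4% and 22.0% of all pairs.

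Smad6 had the highest score of the set, in EpiSCs. Its bait, chr9:64015192-64022983 on GRCm38, holds the 5′ end of the gene on the minus strand, and its partners lay on both sides. In WT ESCs it had 1 contact, with the fragment chr9:63957787-63957978 in an intron at the 3′ side of Smad6 itself, 61.2 kb away, at 20 read pairs (exact Poisson 95% interval 12.2 to 30.9) and a score of 5.64. In EpiSCs the same contact had 40 read pairs (28.6 to 54.5) and a score of 16.24, so that the intervals met only at their ends, and it was not in the Nanog-/- list. Its read ratio of 2.00 lay above 99.1% of the ratios of the 39765 pairs shared by WT ESCs and EpiSCs, whose median was 0.833. Around it 4 more fragments of the Smad6 gene body, 55.6 to 64.0 kb from the bait, were listed in EpiSCs with 19 to 27 read pairs. A further contact in EpiSCs lay 87.9 kb away in an intron of the lincRNA gene Gm36033. Upstream of the gene, 3 intergenic fragments were listed in EpiSCs, of which that at 81.9 kb had 25 read pairs and a score of 11.31. The Nanog-/- list held 2 contacts, at 55.6 kb inside the gene (15 read pairs, score 8.9) and at 77.0 kb upstream (11 read pairs, score 7.14). Both were also in the EpiSC list and neither was in the WT list. Smad6 RNA beside these counts was at 5.11, 6.88 and 2.48 RPKM in WT ESCs, EpiSCs and Nanog-/- ESCs.

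The partner fragment with 40 read pairs in EpiSCs is short enough to be shown whole, with the promoter it contacted, to let the DNA at both ends of the contact be read. Capitals mark 2 letter strings to which SMAD proteins are known to bind, GTCT with its reverse complement AGAC, and GGCGCC, which is its own reverse complement; both strands were searched and the strings do not overlap each other. The promoter is the 250 bases before the RefSeq start of Smad6 (GRCm38.p6, chr9:64022060-64022309, minus strand), and the partner is given on the plus strand (chr9:63957787-63957978).
Smad6 promoter: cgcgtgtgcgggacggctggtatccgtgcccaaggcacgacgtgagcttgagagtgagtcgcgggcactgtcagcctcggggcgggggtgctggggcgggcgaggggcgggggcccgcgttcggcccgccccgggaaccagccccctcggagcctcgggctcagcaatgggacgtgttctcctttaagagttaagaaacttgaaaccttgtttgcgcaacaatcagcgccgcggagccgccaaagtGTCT
Smad6 partner fragment: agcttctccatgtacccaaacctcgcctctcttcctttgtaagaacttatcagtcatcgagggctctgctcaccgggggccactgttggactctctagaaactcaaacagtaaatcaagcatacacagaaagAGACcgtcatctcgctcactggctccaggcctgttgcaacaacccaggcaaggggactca
Each held GTCT or AGAC 1 time and GGCGCC 0 times. Of 32817 RefSeq promoter windows of the same length, 82.9% held GTCT or AGAC and 9.59% held GGCGCC. Of 1399 unbaited partner fragments of 150 to 250 bases on the 7 chromosomes read, the shares were 80.6% and 0.858%. A match is a description of the letters and does not show binding.

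Id1 had contacts that recurred in all 3 lists. Its bait, chr2:152730240-152742147, holds the whole gene and is also a fragment of a super-enhancer (SE) in the study's list of ESC SEs. All 4 WT contacts of Id1 were in the EpiSC list and 2 of them were in the Nanog-/- list too. On one side lay H13, the gene of a signal peptide peptidase. The fragment 42.3 kb away (chr2:152690917-152696866), with exons of H13 and of the lincRNA gene Gm26841, had 22 read pairs and a score of 6.94 in WT ESCs, 28 and 13.89 in EpiSCs, and 12 and 5.89 in Nanog-/- ESCs. The exact Poisson intervals of these reads overlapped (13.8 to 33.3, 18.6 to 40.5 and 6.20 to 21.0). On the other side lay Bcl2l1, the gene of the anti-apoptotic protein BCL-XL. The Bcl2l1 fragment at 90.5 kb had 13, 11 and 10 read pairs in WT ESCs, EpiSCs and Nanog-/- ESCs, with scores of 6.54, 7.29 and 8.06. The baited Bcl2l1 promoter, 102 kb away, had 9 read pairs and a score of 11.78 in WT ESCs and 7 read pairs and 8.55 in EpiSCs, and was not in the Nanog-/- list. The 8 further contacts in EpiSCs lay beside these, over H13 with the baited gene Mcts2, over Bcl2l1, in an intergenic fragment at 111 kb, and at the baited promoter of Tpx2, 112 kb away. The Nanog-/- contacts of Id1 not in another list were with Cox4i2 at 27.4 kb (14 read pairs, score 5.07) and with a fragment on another chromosome at 2 read pairs and a score of 5.1, just above the lowest score listed.

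No member promoter was listed in contact with a fragment of the study's ESC SE list in any state, although the Id1 bait lies in one. Over all baited ends the partner was such a fragment in 0.261%, 0.281% and 0.263% of contacts, and 0 of 28, 48 and 15 member contacts allows shares of up to 10.7%, 6.25% and 20.0%, so a share near that of all baits was not detectable. Only single fragments were counted, and the study's scoring of joined SE fragments as 1 region was not repeated here. The paper, in contrast, names Smad1 among the genes in contact with SEs in both ESCs and EpiSCs. Its rules also admitted some contacts with a score under 5, and the lists used here hold none. Whether this accounts for the difference was not tested. With SE regions called by ROSE, of ESCs for both ESC lists and of EpiSCs for the EpiSC list, 3 contacts per list touched an SE, and all were of Id1. In WT ESCs 1 of these lay in the SE that holds the bait and 2 in the other SE, over Bcl2l1. The Nanog-/- contacts split in the same way, 1 and 2, with those in the other SE at Cox4i2 and Bcl2l1. In EpiSCs all 3 lay in the SE that holds the bait, over H13. The second SE near Id1 was in the ESC call set and was not among the EpiSC regions near Id1, so the Bcl2l1 fragment at 90.5 kb, in contact in all 3 lists, counted as an SE fragment in the ESC lists.

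Id2 contacts reached farthest. All lay on one side of the bait chr12:25086065-25096636, upstream of the gene on its minus strand, with no start of a protein-coding gene between. In WT ESCs 3 contacts fell in an intron of the lincRNA gene Gm36723, at 321, 323 and 367 kb, the strongest with 11 read pairs and a score of 10.05, and 2 fell in intergenic DNA at 977 and 979 kb with 5 read pairs each. In EpiSCs 2 contacts fell in the Gm36723 intron, at 313 and 324 kb with 7 read pairs each, and none of these fragments was the same as in WT ESCs. The other 6 EpiSC contacts lay from 979 to 1135 kb, where the fragment at 979 kb had 9 read pairs (exact Poisson interval 4.12 to 17.1) and a score of 15.28. The same fragment had 5 (1.62 to 11.7) and a score of 5.84 in WT ESCs. The counts are small and their intervals overlap; CHiCAGO scores each list against its own background, so reads and scores need not move together. The single Nanog-/- contact of Id2 was at 1201 kb with 4 read pairs. Id2 RNA was at 28.0, 13.2 and 23.2 RPKM in WT ESCs, EpiSCs and Nanog-/- ESCs, so RNA was lower in EpiSCs, where more contacts were listed. The shortest of the far Id2 partners in EpiSCs, 995 kb from the promoter (chr12:26086687-26086855, plus strand, GRCm38.p6, 5 read pairs and a score of 6.63), is shown as an example of the intergenic DNA there.
Id2 partner fragment: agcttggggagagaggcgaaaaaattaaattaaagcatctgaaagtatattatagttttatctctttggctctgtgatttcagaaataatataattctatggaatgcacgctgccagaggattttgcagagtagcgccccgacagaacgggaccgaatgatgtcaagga
It held neither letter string, as its lack of capitals shows.

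Id4 went from 6 contacts in WT ESCs to 1 in EpiSCs and 3 in Nanog-/- ESCs. The contact in all 3 lists was with the baited promoter of the lincRNA gene 4931429P17Rik, 242 kb away (chr13:48018228-48021965), at 13 read pairs and a score of 9.55 in WT ESCs, 8 and 9.28 in EpiSCs, and 6 and 6.96 in Nanog-/- ESCs. The other 5 WT contacts had 7 to 13 read pairs, and 1 of them, at 402 kb, was with the baited promoter of the homeobox gene Barx1. The 2 further Nanog-/- contacts, at 223 and 311 kb, were in no other list. Id4 RNA differed little beside this, at 3.88, 4.27 and 3.34 RPKM. The Id4 promoter is shown because it held the GGCGCC that the Smad6 promoter lacked (GRCm38.p6, chr13:48260866-48261115, plus strand, 250 bases before the RefSeq start).
Id4 promoter: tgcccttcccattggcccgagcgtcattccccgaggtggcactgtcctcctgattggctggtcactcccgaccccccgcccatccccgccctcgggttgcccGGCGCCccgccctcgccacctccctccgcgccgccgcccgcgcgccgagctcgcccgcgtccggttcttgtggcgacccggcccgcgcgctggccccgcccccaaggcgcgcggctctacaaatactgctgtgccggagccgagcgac
It held GGCGCC 1 time and GTCT or AGAC 0 times. Of the 8 listed genes with a RefSeq promoter entry, 4 held GGCGCC in some window (Bmpr1a, Id2, Id4 and Smad5). GTCT or AGAC was held by 5 (Bmp4, Id2, Id3, Smad5 and Smad6). Counted by window, 4 of 10 held GGCGCC and 7 of 10 held GTCT or AGAC, beside 9.59% and 82.9% of all promoter windows. Smad5 had several windows, and the share of all genes with a string in some window was not computed. GGCGCC is made of G and C alone, and the windows were not matched for these bases. Whether either string is more frequent in these promoters was not tested.

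Smad1, Smad5 and Bmp4 had few contacts, and none recurred between lists. Smad1 had a WT contact 13.3 kb away in its own intron with 72 read pairs, the most of any member contact, and a score of 6.2, as CHiCAGO expects more reads at short distances. Its other WT contact lay 197 kb upstream with 11 read pairs. In EpiSCs Smad1 contacted fragments at 78.4 and 172 kb, and in Nanog-/- ESCs one at 16.4 kb with 26 read pairs. Smad5 had no contact in either ESC list and 2 in EpiSCs, with the baited promoters of Lect2 at 155 kb and Fbxl21 at 183 kb, at 11 read pairs each and scores of 6.4 and 7.37. Bmp4 had no contact in either ESC list and 1 in EpiSCs, 435 kb away at 5 read pairs and a score of 5.87. Smad5 RNA was higher in EpiSCs and Bmp4 RNA was lower, and both had contacts there and none in WT ESCs.

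**Figure D4:**
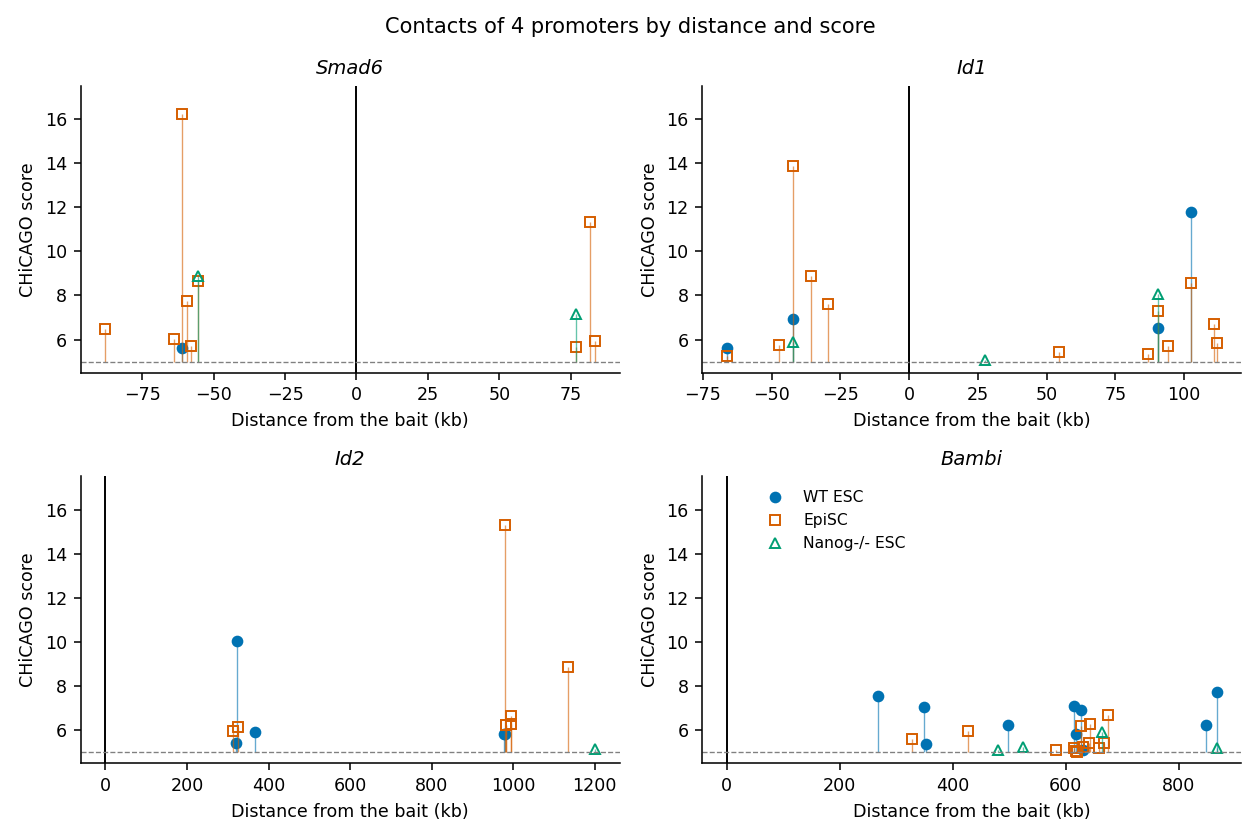
CHiCAGO score (lowest listed value 5, dashed) against distance from the bait in kb for the contacts of Smad6, Id1, Id2 and Bambi within a chromosome; negative distances are toward lower coordinates, and symbols give the list. The highest points are EpiSC contacts of Smad6 (16.24), Id2 (15.28) and Id1 (13.89), and all contacts of Id2 and Bambi lie on one side.

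Bambi had the most contacts of the set in WT ESCs and EpiSCs, none of them strong. Its contacts (10 WT, 13 EpiSC and 4 Nanog-/-) all lay on one side, downstream of the gene, from 267 to 867 kb, with 3 to 13 read pairs each and scores no higher than 7.74. WT ESCs and EpiSCs shared 4 contacts, intergenic fragments at 614, 618, 626 and 629 kb, and their read pairs were 10, 9, 10 and 8 in WT ESCs and 7, 7, 8 and 7 in EpiSCs. Beyond these, EpiSC contacts ran on to 675 kb over Lyzl1, a lysozyme-like gene, whereas WT contacts included the promoters of Map3k8 at 848 kb and Mtpap at 867 kb. The Mtpap contact was also in the Nanog-/- list, at 3 read pairs against 5. Bambi RNA was at 4.40, 7.77 and 5.35 RPKM.

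Where a member contact was in both lists, its read pairs mostly followed the totals of the lists. The median ratio of EpiSC to WT read pairs was 0.800 over the 11 shared member contacts and 0.833 over all 39765 shared pairs, of which 5% to 95% lay between 0.507 and 1.43. Only Smad6 at 61.2 kb (2.00) and Id2 at 979 kb (1.80) lay above that range, and none lay below it. For Nanog-/- ESCs the 4 shared member contacts had a median ratio of 0.573, beside 0.621 over 41986 shared pairs, and all 4 lay within 0.418 to 0.917. Genes of the other pathway lists had 41 baits with 262 contacts for WT ESCs, 295 for EpiSCs and 205 for Nanog-/- ESCs. Single baits went both ways: Bmpr1b had 4, 13 and 1 and Acvr2a had 0, 7 and 0, whereas Gdf7 had 16, 4 and 15 and Bmp8b had 12, 6 and 10. The share of these baits that changed by 2-fold was not counted.

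**Figure D5:**
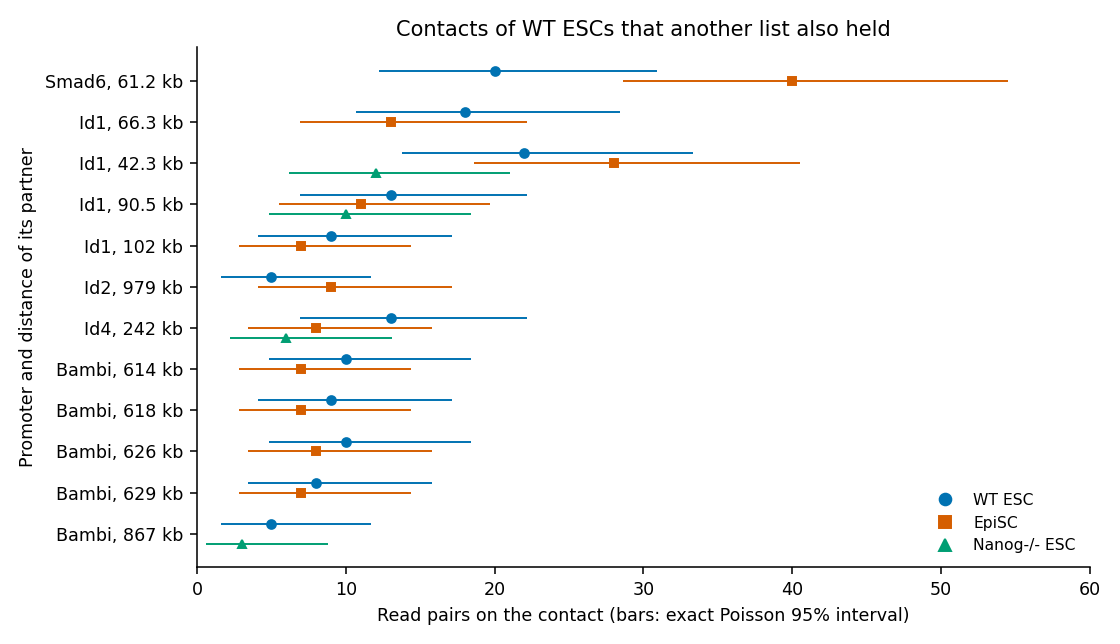
Read pairs on each WT ESC contact of a member promoter that another list also held, with exact Poisson 95% intervals (counting error only), labelled by promoter and distance. Smad6 at 61.2 kb moves from 20 to 40 read pairs between WT ESCs and EpiSCs, and the intervals of all contacts shown overlap.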

How the data were processed

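The authors deposited, per cell state, 1 list of PCHi-C interactions, with the count of read pairs of each fragment pair and its CHiCAGO score after combining replicates, and 1 RNA-seq table with the RPKM of each gene reduced by the authors to the median of each group. That table also holds the authors' log2 fold changes and p-values, which were not used. By the methods, HiCUP mapped and filtered the PCHi-C reads; the submitters' processing notes name Bowtie 1.1.0, TopHat, DESeq2, Trim Galore and the build GRCm38 (mm10). The RNA library kit does not mark strand.

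Pairs listed from both ends were counted once, with the higher reads and score. All 82 member fragments carried HindIII sites at both ends in GRCm38.p6. Fragments were annotated with GENCODE M21. The study's SE fragments and ROSE regions served as annotation. The column named BT12 was taken as Nanog-/- ESCs, by the study's design text. RNA differences were taken on log2(RPKM + 1), with EpiSC RPKM divided by 1.89. They cover genes at 1 RPKM or more in some state, and this filter used EpiSC RPKM as deposited. Exact Poisson and Wilson intervals (95%) cover counting error only, and PCR copies are not independent molecules. Calls were tested on simulated data. Python 3.11.15, numpy 2.4.6, scipy 1.17.1 and pandas 2.3.3 were used. Genes named are all members, and in the pathway lists those past 2-fold or needed for a role; members and lists were chosen with earlier results of these data known. ChIP-seq was not analysed here. Alternatives were another pseudocount, no low filter, other scalings, a score of 7, 10 reads, joined fragments and ROSE SEs.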

Additional observations from a re-analysis of the deposited data

How the results depend on the processing

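The values depend most on the scaling of EpiSC RNA and on the score and read limits for contacts. A score of at least 7 left 7, 13 and 3 member contacts (WT, EpiSC and Nanog-/-), and at least 10 reads left 17, 21 and 6. EpiSCs had the most contacts under each. Joining partner fragments within 5 kb, an alternative chosen after seeing the data, gave 26 regions in EpiSCs. The share of WT contacts also in the EpiSC list was 23.5% with at least 10 reads (40.2% of all pairs), and the share also in the Nanog-/- list was 0% (0 of 7) with a score of at least 7 (43.1% of all pairs). With ROSE SE regions 3 contacts per list touched an SE in place of 0. With a pseudocount of 0.1, 1 member (Smad6, -1.01) was called in Nanog-/- ESCs in place of 0, and over all genes the calls there went from 264 higher and 212 lower to 638 and 414. As deposited, Smad1 (1.73), Smad6 (1.19) and Bambi (1.53) passed 2-fold in EpiSCs and Bmp4 (-0.62) and Id2 (-0.16) did not; with the ratio over genes at 10 RPKM or more (1.70), Smad1 (1.02) passed and Id2 (-0.89) did not. As deposited, the members' calls in EpiSCs went from 1 higher and 2 lower to 4 higher and 0 lower, although their number stayed within 1.5 times. Of 56 alternative values of the gene differences, 46 kept their sign and their side of the call, and no called difference changed sign. No paired analysis was possible because the tables hold 1 median or 1 combined list per state. For the same reason no sample could be left out in turn.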
